A study of Homo sapiens with 9 samples.

Results

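The genes described here encode the proteins of the cytosolic ribosome, with their close paralogs. They were taken by symbol: RPL or RPS followed by a number with an optional suffix, plus RPLP0, RPLP1, RPLP2 and RPSA. Kinases of the RPS6K type, antisense symbols and pseudogenes were left out. This gave 85 genes of the 26830 in each table, of which 53 belong to the large subunit and 32 to the small subunit, and 75 are standard subunits and 10 are paralogs. Enough counts for a test were found for 82 of them, 52 large and 30 small, 75 standard and 7 paralogs. The 3 members left untested were RPL3L and the Y-linked RPS4Y1 and RPS4Y2.

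The study sequenced poly(A) RNA of human cells that carry the label NB4, the name of an established acute promyelocytic leukaemia line. The cells had been kept for 48 h with the solvent DMSO (labelled as control), with FB23 or with FB23-2, both described in the series title as inhibitors of FTO, an enzyme that removes N6-methyladenosine from RNA. There were 3 libraries per group and 9 in all. The labels give no genetic change and name the same line for all 3 groups, and neither the doses nor separate cultures are given in the labels, so that p-values measure the spread between these libraries, which may be technical. Expected counts summed to between 12360291 and 38410750 per library, both extremes being FB23 libraries. The labels give the cell type as an acute monocytic leukaemia, but the promyelocyte granule genes MPO and CTSG had 0 counts in all 9 libraries. Of 7 promyelocyte and myeloid markers 2 were at 0, and their summed level of 38.6 to 47.4 TPM (a level scaled for transcript length and library total) over the 9 libraries was nearly all CD33. The 10 erythroid markers summed to 27618 to 29254 TPM with DMSO, 31572 to 33981 with FB23 and 4078 to 4659 with FB23-2, with none at 0. The 3 epithelial markers summed to 389 to 392, 410 to 431 and 1949 to 2083 TPM, again with none at 0, but only KRT8 was higher in both treated groups. KRT19 went from a mean of 89.4 TPM with DMSO to 67.9 with FB23 and 621 with FB23-2, and EPCAM from 73.5 to 54.2 and 25.5. The marker levels go against the label, and whether the libraries come from another line was not tested. They also moved with the groups, and their part in the results on ribosomal protein genes was not tested.

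Each cytosolic ribosome carries a small subunit, which reads the mRNA, and a large subunit, which joins amino acids, and nearly all of their proteins are made in equal amounts from genes scattered over the genome. Their mRNAs are short and abundant. Most begin with a C followed by a run of pyrimidines, the terminal oligopyrimidine (TOP) motif, through which the mTOR pathway and LARP1 set their translation and stability. Some members have a paralog that can take the same place in the ribosome, and some, such as RPL5 and RPL11, bind MDM2 when ribosome assembly is disturbed.

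The start sites are shown because the motif is the sequence feature that the family shares. Each line gives 10 bases before and 20 from the start in the RefSeq promoter table (GRCh38.p14), on the gene's strand, and the capitals mark the unbroken pyrimidine run that begins at the start. The first 5 are standard subunits that carry the motif and whose levels are described further on. RPL22 and RPL22L1, a standard subunit and its paralog, both carry it. The last 4 have no match at the start printed.
RPLP0 (chr12:120201092-120201121, minus strand): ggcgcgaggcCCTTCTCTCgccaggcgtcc
RPL12 (chr9:127451387-127451416, minus strand): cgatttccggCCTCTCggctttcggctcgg
RPS27 (chr1:153990752-153990781, plus strand): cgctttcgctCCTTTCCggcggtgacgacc
RPL28 (chr19:55385922-55385951, plus strand): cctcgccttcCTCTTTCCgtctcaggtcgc
RPL35 (chr9:124861938-124861967, minus strand): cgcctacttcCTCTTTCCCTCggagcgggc
RPL22 (chr1:6199576-6199605, minus strand): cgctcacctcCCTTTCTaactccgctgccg
RPL22L1 (chr3:170870176-170870205, minus strand): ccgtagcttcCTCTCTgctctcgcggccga
RPS26 (chr12:56041908-56041937, plus strand): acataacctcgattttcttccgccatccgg
RPL26L1 (chr5:172958719-172958748, plus strand): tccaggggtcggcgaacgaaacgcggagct
RPL7L1 (chr6:42879606-42879635, plus strand): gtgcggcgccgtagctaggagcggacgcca
RPS29 (chr14:49598691-49598720, minus strand): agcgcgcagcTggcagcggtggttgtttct

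Of the member genes that the table held, 66 were counted. A C at the start followed by at least 4 pyrimidines, read on the gene's strand, was found for 45 of them (68.2%), against 4.99% of all other genes in the table. It was found for 44 of 60 standard members (73.3%) and for 1 of 6 paralogs, RPL22L1. The motif CACGTG, read within the 300 bases around the start and the same on both strands, was found for 5 members (7.58%: RPL13A, RPL19, RPL7L1, RPS19 and RPS28), against 8.78% of other genes. RPS26 carries pyrimidine runs a few bases before and after its listed start, but none that begins with a C at the start itself. A match describes these letters only.

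The members were among the most abundant transcripts of these cells. With DMSO, 58 of the 100 genes with the highest TPM were members, and 61 members exceeded 1000 TPM. Together they held 30.1%, 29.9% and 29.7% of all TPM in DMSO replicates 1 to 3. Because the transcripts are short, the same genes held 7.21% to 7.34% of expected counts (the reads assigned to a gene by RSEM). RPS27, a small-subunit protein, stood highest at 17407 ± 458 TPM (SD, n = 3), followed by the stalk protein RPLP1 at 15322 ± 186 TPM and RPS2 at 11420 ± 84.1 TPM.

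These levels depend on the transcript model behind each gene. The tables give 1 model per gene, and standard members ranged from 13.8 TPM for RPS29 to 17407 TPM for RPS27, with a median of 3516 TPM. Of the 14 standard members under 1000 TPM, 8 had a model over 1.5 times as long as the gene's shortest principal transcript in GENCODE 29. Another 1 had no principal transcript to compare. Of the 61 above 1000 TPM, 3 had such a model, but several, such as RPL11 and RPL19, had no principal transcript to compare. The RPS29 model is 1414 bases where the shortest principal transcript is 296 bases, and the RPL28 model is 4207 bases where it is 852. RPS27 has a model of 351 bases, of which 19.1 to 27.9 bases remained as effective length, so its TPM rests on a small divisor. The order of standard members by TPM is therefore a description of these models, and no 2 members were tested against each other.

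**Figure D1:**
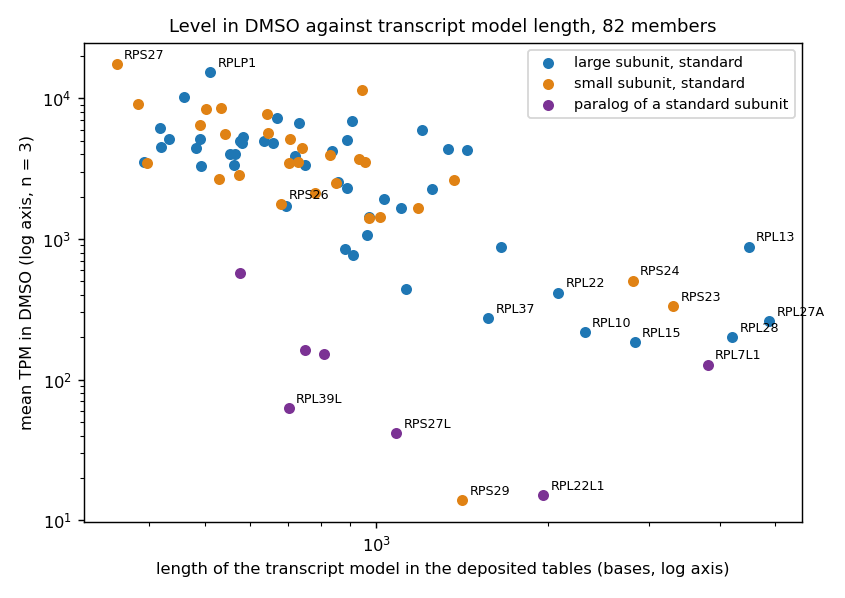
Mean TPM in DMSO (n = 3, log axis) of the 82 tested members against the length in bases of the transcript model in the deposited tables (log axis); each point is a gene, coloured by subunit or as a paralog. Standard members span 13.8 to 17407 TPM, and most of those under 1000 TPM have long models.

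Paralogs were at low levels. The highest of the 7 tested paralogs was below the median of the standard members, and RPL22L1, a paralog of RPL22, had 15.1, 16.3 and 13.9 TPM with DMSO. Summed over the 10 paralogs, the level was 1092 to 1152 TPM with DMSO, 1148 to 1202 TPM with FB23 and 907 to 936 TPM with FB23-2. The FB23-2 libraries lay below all others.

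The share of TPM held by the 85 members was 28.6%, 29.1% and 29.3% in FB23 replicates 1 to 3, each below the DMSO libraries. It was 33.0%, 32.6% and 31.8% with FB23-2, each above the DMSO libraries. This share is a sum, and members did not move alike. Mean TPM went from 17407 with DMSO to 27618 with FB23-2 for RPS27, and from 15322 to 19477 for RPLP1. It went from 10184 to 6876 for RPL35. The effective length of RPS27 was 19.1 to 27.9 bases, a small divisor. Limma-trend on log2(TPM + 1) called 34 members higher and 20 lower (adjusted p under 0.05), against 50.5% and 31.9% of all tested genes. By expected counts the shares were 6.59%, 7.17% and 7.56% with FB23 and 7.67%, 7.52% and 7.17% with FB23-2, and both groups overlapped the DMSO libraries. FB23 replicate 1, the lowest by counts, had the lowest total and the longest fragments. Fragment length was read as the median over genes of model length minus effective length. It was 399 bases in that library against 367 to 379 in the other 8 libraries. The part of fragment length in the share of FB23 replicate 1 was not tested. Pseudogene rows of the family held another 1.40% to 1.75% of TPM.

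**Figure D2:**
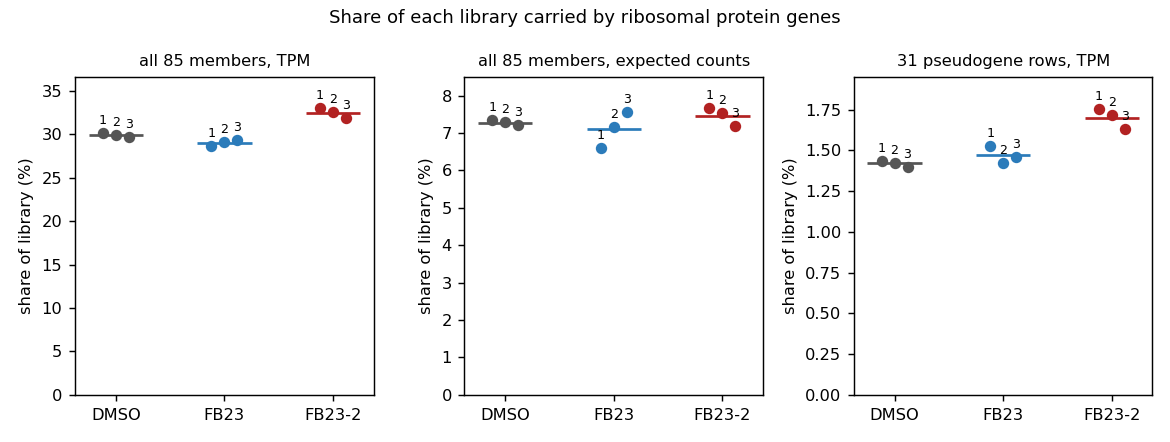
Share in percent of each library held by the 85 members in TPM and in expected counts, and by 31 pseudogene rows in TPM; points are libraries with their replicate number and lines are group means. By TPM the FB23-2 libraries (31.8% to 33.0%) lie above the DMSO libraries (29.7% to 30.1%), and by expected counts the groups overlap. The TPM share is a sum in which members with high TPM, such as RPS27, weigh most.

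FB23 against DMSO asks what the first compound did to these mRNAs. Few members were called, and all 82 stayed within 0.5 of 0 on the log2 scale. With edgeR's quasi-likelihood test (TMM scaling, adjusted over all 13365 tested genes, called at an adjusted p under 0.05), 1 member rose, 3 fell and 78 were not called, or 4.88% called, against 23.5% of all tested genes (12.3% higher and 11.2% lower). Under all 5 scalings tried, 1 member was called higher and 1 lower, against 11.4% and 8.77% of all tested genes. The median member was at -0.08 against 0.00 for all tested genes. An unadjusted edgeR p under 0.05 was found for 15 of the 82 members and for 4709 of all 13365 tested genes. The counts rest on few libraries: without FB23 replicate 1, 6 members were higher and 1 lower, with a median of 0.00, and without FB23 replicate 3, 25 were lower. Without DMSO replicate 1, and likewise without DMSO replicate 2, 0 were lower, and DESeq2 called 1 higher and 7 lower.

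RPS27L, a paralog of RPS27, was the member that rose. It read 21.3, 23.5 and 22.1 CPM (counts scaled to a common library size, with TMM factors) with DMSO and 26.1, 31.1 and 30.4 with FB23. In bulk RNA a change in the mix of cells and a change of RNA per cell cannot be told apart. Every FB23 library was above every DMSO library, and the log2 fold change was 0.41 (SE 0.09, edgeR adjusted p = 0.00269), called under all 22 fits run. With FB23-2 it read 28.2, 23.0 and 25.5 CPM, which overlapped DMSO, at a log2 fold change of 0.21 (SE 0.09, edgeR adjusted p = 0.0399).

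RPS26, a small-subunit protein at the mRNA exit channel, was among the 3 that fell with FB23. It read 421, 412 and 394 CPM with DMSO and 295, 376 and 383 CPM with FB23, with replicate 1 far below the other two. The log2 fold change was -0.21 (SE 0.07, edgeR adjusted p = 0.0391). The other two were RPL23 at -0.16 (SE 0.06, edgeR adjusted p = 0.0482), whose groups overlapped, and RPL7L1, a nucleolar paralog of RPL7, at -0.14 (SE 0.04, edgeR adjusted p = 0.0214), whose groups did not. None of the 3 falls was called under every fit run.

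FB23-2 against DMSO asks the same of the second compound, and the response was wider but small for most members. Under TMM scaling 12 members rose, 43 fell and 27 were not called, or 67.1% called, against 82.6% of all tested genes (41.3% in each direction). The median was -0.16 against 0.01 for all tested genes. Of the 82 members 69 lay within 0.5 of 0 on the log2 scale, or 84.1%, against 36.9% of all tested genes, and the distance between the quartiles was 0.36 for members and 1.47 for all tested genes. The 52 large-subunit members divided into 7 higher and 27 lower, the 30 small-subunit members into 5 higher and 16 lower.

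The direction of the family as a whole depended on the scaling. The median member was at -0.14 with DESeq2 size factors, where 12 were higher and 39 lower against 42.1% and 40.4% of all tested genes. It was at -0.01 with library totals (26 higher, 26 lower; background 47.1% and 35.6%), at 0.02 with upper-quartile factors (28 higher, 23 lower; background 48.3% and 34.7%) and at 0.19 after a gene-length trend was removed (50 higher, 16 lower; background 41.2% and 41.8%). Upper-quartile factors and library totals also moved the median of all tested genes, to 0.18 and 0.16. Taken relative to the median of all tested genes, the member median was -0.17 under TMM, DESeq2 size factors, upper-quartile factors and library totals alike, and 0.20 after the length trend was removed. Members are short: their median model was 765 bases against 2921 for all tested genes, and they were 42 of the 450 tested genes with a model under 800 bases. Because the sign of the family median turned with the scaling, the members described next are mainly those called in 1 direction under all 5 scalings, and values that turned are given where they did.

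**Figure D3:**
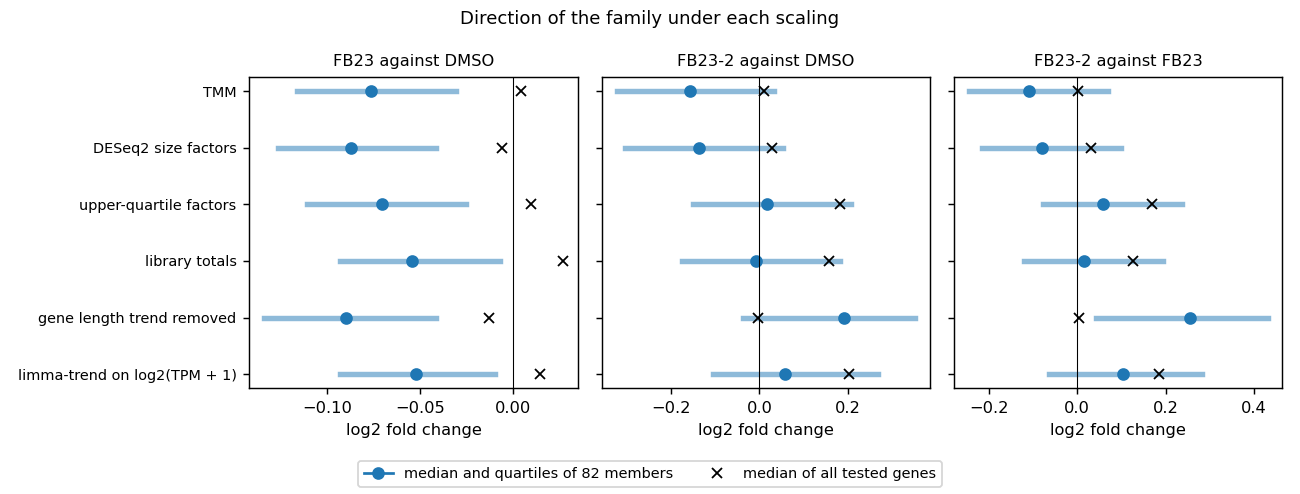
Log2 fold change under each scaling (rows) for the 3 comparisons (panels, each with its own axis): dots and bars are the median and quartiles of the 82 tested members and crosses the median of all tested genes. For FB23-2 against DMSO the member median runs from -0.16 with TMM to 0.19 after a gene-length trend is removed.

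Under all 5 scalings 12 members were called higher and 13 lower with FB23-2, against 38.5% and 34.2% of all tested genes. Different scalings called 14 of the 82 members in opposite directions, against 178 of all 13365 tested genes. The 12 higher members were RPL10, RPL10L, RPL12, RPL13A, RPL28, RPLP0, RPLP1, RPS27, RPS27L, RPS28, RPS29 and RPS3. The 13 lower members were RPL5, RPL6, RPL7L1, RPL8, RPL19, RPL22, RPL22L1, RPL23, RPL26L1, RPL35, RPL36AL, RPS7 and RPS26, and all 13 were also lower under each of the 22 fits. Of the 12 higher members, 9 were higher under each of the 22 fits. The other 3, RPLP1, RPS27L and RPS28, lost their call in some fits that left out a library, RPS28 also with DESeq2 and RPS27L also with no filter on low counts.

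**Figure D4:**
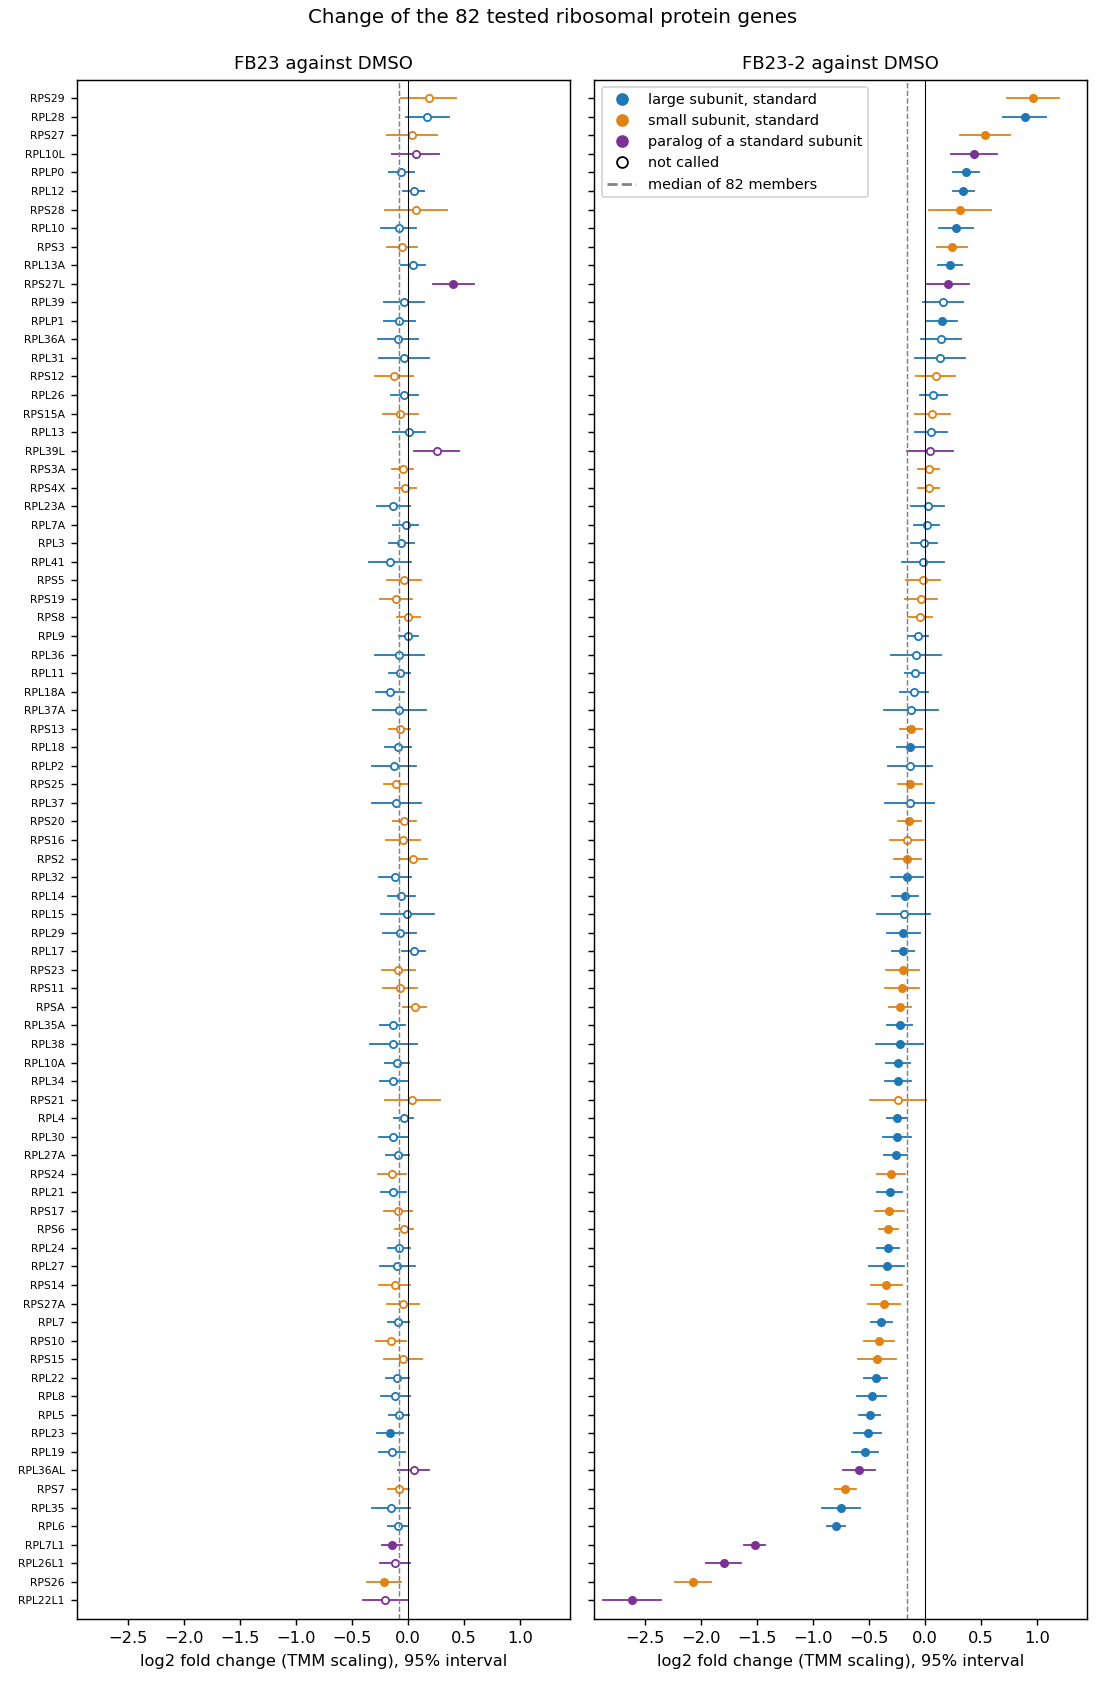
Log2 fold change (TMM scaling) with its 95% interval for each of the 82 tested members, FB23 against DMSO on the left and FB23-2 against DMSO on the right, ordered by the right panel; filled dots are called, and the dashed line is the member median, whose sign with FB23-2 turns with the scaling. All members lie within 0.5 of 0 with FB23, and 4 lie below -1 with FB23-2.

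RPS26 had the largest fall among standard subunits. With FB23-2 it read 101, 95.2 and 95.9 CPM against 421, 412 and 394 CPM with DMSO. The groups lay far apart, at 4.19-fold lower (log2 -2.07, SE 0.08, edgeR adjusted p = 4.61e-14), while no other standard subunit reached 1 on the log2 scale. In TPM it went from 1769 ± 45.0 (SD, n = 3) with DMSO to a mean of 493 with FB23-2. The gene lies at chr12:56041351-56044697 (GENCODE 29, GRCh38, plus strand). Its pseudogene row RPS26P11 held 4 counts in all 9 libraries together, and reads lost to copies without a row were not tested. TSR2, the chaperone that carries RPS26 to the ribosome, also fell (log2 -0.95, SE 0.07).

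RPL6, a large-subunit protein, read 1545, 1518 and 1472 CPM with DMSO, 1399, 1425 and 1430 with FB23 and 878, 870 and 866 with FB23-2. The FB23-2 libraries were lowest and hardly differed among themselves (log2 -0.80, SE 0.04, edgeR adjusted p = 2.23e-12). RPL35, at the exit of the peptide tunnel, read 741, 692 and 694 CPM with DMSO and 434, 427 and 407 with FB23-2 (log2 -0.75, SE 0.08, edgeR adjusted p = 1.19e-07). RPS7 read 964, 948 and 891 CPM with DMSO and 575, 556 and 583 with FB23-2 (log2 -0.71, SE 0.04, edgeR adjusted p = 5.41e-11). In none of the 3 did the FB23-2 libraries overlap the DMSO libraries. RPL22, an RNA-binding large-subunit protein, and RPL23 were lower by less, at -0.44 (SE 0.05) and -0.51 (SE 0.06).

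RPL28 and RPS29 had the largest rises. RPL28, a large-subunit protein, read 588, 550 and 595 CPM with DMSO, 532, 658 and 759 with FB23 and 1134, 1105 and 974 with FB23-2. All FB23-2 libraries exceeded all others, at 1.85-fold over DMSO (log2 0.89, SE 0.09, edgeR adjusted p = 5.69e-08). RPS29, a small-subunit protein, read 12.5, 10.4 and 9.75 CPM with DMSO and 21.4, 22.3 and 19.8 with FB23-2 (log2 0.96, SE 0.11, edgeR adjusted p = 3.32e-07). Both are among the members whose model is much longer than the shortest principal transcript, and which of their isoforms changed was not tested. RPS27, which has a short model, read 317, 322 and 311 CPM with DMSO and 467, 469 and 441 with FB23-2 (log2 0.54, SE 0.11, edgeR adjusted p = 0.000161).

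**Figure D5:**
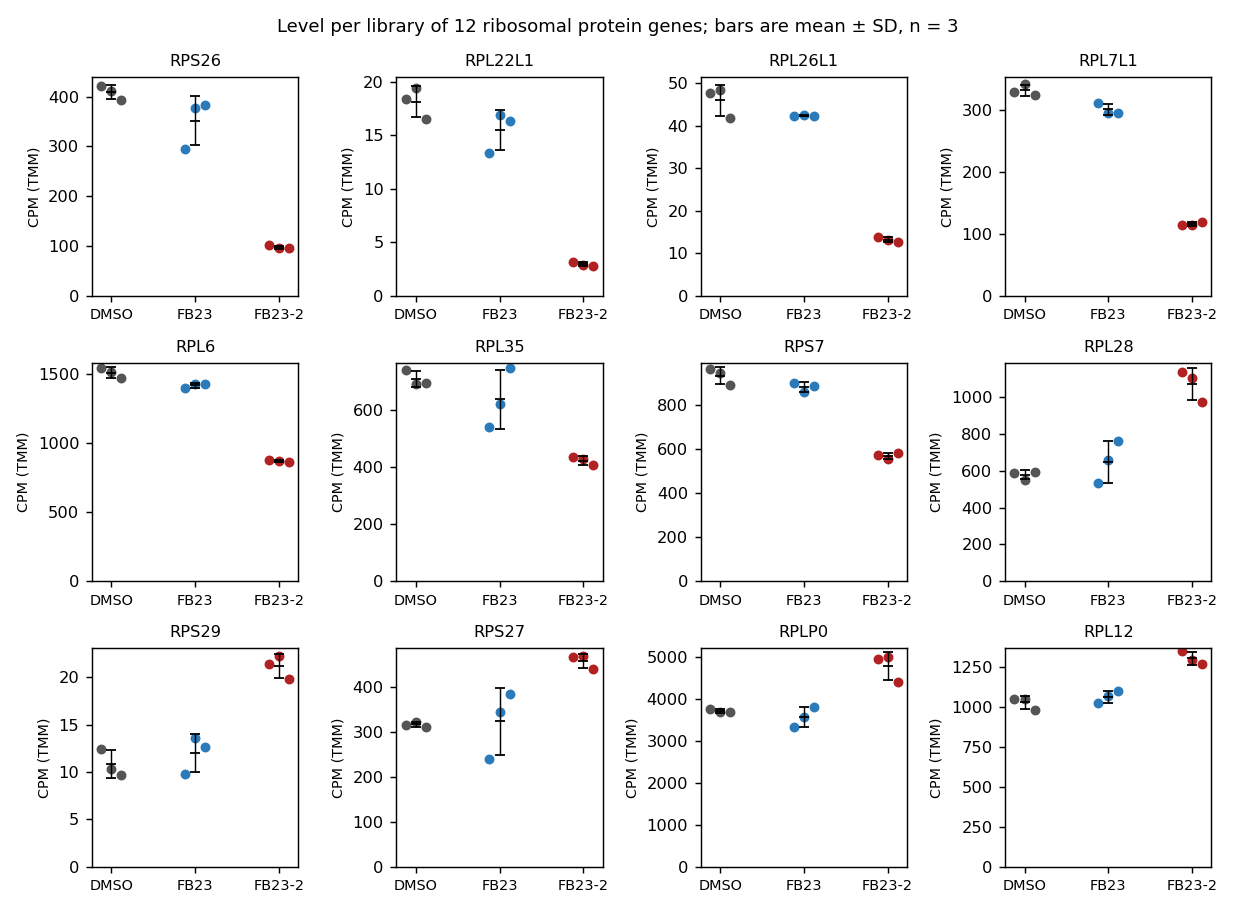
CPM (TMM scaling, axes from 0) per library of 12 members by treatment; points are libraries and bars are the mean ± SD (n = 3). RPS26 falls from 394 to 421 with DMSO to 95.2 to 101 with FB23-2, and RPL28 goes from 550 to 595 to 974 to 1134.

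The stalk recruits elongation factors to the large subunit and is built from RPLP0, RPLP1 and RPLP2 on a base that RPL12 adjoins. RPLP0 read 3769, 3697 and 3695 CPM with DMSO, 3327, 3574 and 3816 with FB23 and 4960, 5010 and 4408 with FB23-2. The FB23-2 libraries were highest (log2 0.37, SE 0.05, edgeR adjusted p = 7.12e-06). RPL12 read 1049, 1048 and 982 CPM with DMSO and 1347, 1292 and 1269 with FB23-2 (log2 0.34, SE 0.04, edgeR adjusted p = 1.34e-06). RPLP1 read 1603, 1629 and 1582 CPM with DMSO and 1902, 1789 and 1649 with FB23-2 (log2 0.15, SE 0.06, edgeR adjusted p = 0.0404). These 3 rose, and RPLP1 by the least. RPLP2 was not called: its 284, 281 and 258 CPM with FB23-2 were below 303, 298 and 302 with DMSO (log2 -0.13, 95% interval -0.33 to 0.06, edgeR adjusted p = 0.181), and after the length trend was removed it was at 0.29.

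RPL5 and RPL11 travel with 5S RNA into the large subunit and bind MDM2 when they are free. RPL5 read 951, 969 and 927 CPM with DMSO, 871, 927 and 893 with FB23 and 699, 648 and 675 with FB23-2. It fell with FB23-2 (log2 -0.49, SE 0.04, edgeR adjusted p = 8.07e-09). RPL11 read 998, 973 and 933 CPM with DMSO and 950, 897 and 885 with FB23-2, with overlap (log2 -0.09, 95% interval -0.18 to 0.00, edgeR adjusted p = 0.0708), and after the length trend was removed it was at 0.30. The 2 partners were thus not called alike under TMM scaling, and the difference between them was not tested. Among their assembly and checkpoint partners with FB23-2, the assembly factors RRS1 and RPF2 were at -3.66 (SE 0.08) and -2.84 (SE 0.07) and MYC at -1.83 (SE 0.05), while MDM2 was at 0.96 (SE 0.07). HEATR3, which imports RPL5, was at -0.92 (SE 0.07), GLTSCR2, a nucleolar assembly factor, at 0.77 (SE 0.05), and MDM4 at -0.31 (SE 0.10), whose call was not kept under all 5 scalings.

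Members known for mutations in Diamond-Blackfan anaemia, a failure of red cell formation, moved by unequal amounts. Of these, RPS26, RPS7, RPL35 and RPL5, described above, were lower under all 5 scalings, and RPL11 was not called under TMM scaling. RPS19 was not called under TMM scaling, reading 925, 880 and 867 CPM with DMSO and 898, 891 and 817 with FB23-2 (log2 -0.04, 95% interval -0.18 to 0.11, edgeR adjusted p = 0.631), but it was at 0.31 (edgeR adjusted p = 3.04e-06) after the length trend was removed and at 0.20 (limma adjusted p = 0.00359) with limma-trend on log2(TPM + 1). RPS24 fell under TMM scaling at -0.30 (SE 0.06, edgeR adjusted p = 0.00015), and its call was not kept under all 5 scalings. RPS14, lost in a myelodysplastic syndrome, was at -0.34 (SE 0.07, edgeR adjusted p = 0.000115) under TMM and at 0.02 after the length trend was removed. RPS6, the target of S6 kinase, was at -0.33 (SE 0.04, edgeR adjusted p = 5.92e-07) under TMM and at 0.02 after the length trend was removed. RPL3, at the peptidyl transferase centre, was at -0.01 (95% interval -0.12 to 0.10) under TMM and at 0.21 after the length trend was removed.

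Other members that rose under all 5 scalings did so by little. RPL10, which joins the large subunit late in its assembly, read 317, 322 and 319 CPM with DMSO, 254, 306 and 340 with FB23 and 397, 393 and 371 with FB23-2 (log2 0.28, SE 0.07, edgeR adjusted p = 0.00186). RPL13A, which also has a role in silencing inflammatory mRNAs, read 914, 929 and 888 CPM with DMSO and 1093, 1070 and 1030 with FB23-2 (log2 0.23, SE 0.05, edgeR adjusted p = 0.000572). The FB23-2 libraries of both lay above all DMSO libraries. RPS28 read 262, 251 and 273 CPM with DMSO, 191, 278 and 350 with FB23 and 330, 342 and 304 with FB23-2 (log2 0.31, SE 0.13, edgeR adjusted p = 0.0358). Its FB23 libraries spanned the range of the other groups.

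RPSA, RPS2 and RPS27A, all of the small subunit, fell under TMM scaling, and their calls were not kept under all 5 scalings. RPSA, which doubles as a laminin receptor, read 1045, 1025 and 983 CPM with DMSO and 910, 881 and 826 with FB23-2 (log2 -0.22, SE 0.05, edgeR adjusted p = 0.00037), and was at 0.032 after the length trend was removed. RPS2, at the mRNA entry channel, read 4987, 4823 and 4837 CPM with DMSO, 4709, 4882 and 5547 with FB23 and 4625, 4452 and 4060 with FB23-2 (log2 -0.16, SE 0.06, edgeR adjusted p = 0.0188), and was at 0.16 after the length trend was removed. RPS27A, made as a fusion with ubiquitin, read 655, 653 and 598 CPM with DMSO and 511, 477 and 489 with FB23-2 (log2 -0.37, SE 0.07, edgeR adjusted p = 7.11e-05). In all 3 the FB23-2 libraries lay below the DMSO libraries under TMM scaling.

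Among paralogs, 2 rose and 4 fell with FB23-2 under TMM scaling, or 85.7% called, near the 82.6% of all tested genes. RPL39L, a paralog of RPL39, was not called (log2 0.04, 95% interval -0.16 to 0.25). RPL22L1 read 18.4, 19.4 and 16.5 CPM with DMSO, 13.4, 16.8 and 16.3 with FB23 and 3.13, 2.90 and 2.79 with FB23-2. This was the largest change of any member, 6.11-fold lower (log2 -2.61, SE 0.12, edgeR adjusted p = 1.17e-12). RPL26L1 read 47.7, 48.3 and 41.8 CPM with DMSO and 13.8, 13.2 and 12.6 with FB23-2 (log2 -1.80, SE 0.07, edgeR adjusted p = 1.68e-13). RPL7L1 read 329, 342 and 325 CPM with DMSO and 115, 114 and 119 with FB23-2 (log2 -1.52, SE 0.04, edgeR adjusted p = 1.71e-15). The 3 fell by more than any standard subunit other than RPS26.

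The ratio of a paralog to its standard counterpart within a library does not depend on a factor applied to the whole library. Removal of the length trend acts on each gene by its model length, so it can change such a ratio. The model of RPL7L1 is 3806 bases and that of RPL7 is 837 bases. The ratios were not read after that removal. RPL22L1 was at 3.45%, 3.49% and 3.23% of the CPM of RPL22 with DMSO and at 0.777%, 0.771% and 0.694% with FB23-2. RPL26L1 went from 6.27%, 6.47% and 5.73% of RPL26 to 1.68%, 1.64% and 1.72%, and RPL7L1 from 22.2%, 22.8% and 22.8% of RPL7 to 9.83%, 10.4% and 10.8%. RPL36AL went from 27.6%, 25.7% and 26.3% of RPL36A to 16.3%, 15.5% and 16.1%. In these 4 pairs the FB23-2 and DMSO libraries did not overlap, and the exact permutation test (two-sided, 3 against 3) gave p = 0.1, the smallest it allows. RPL10L, whose sequence is close to that of RPL10, so that reads may be split between them, rose beside it (log2 0.44, SE 0.10, against 0.28, SE 0.07).

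FB23-2 was also set against FB23 directly, at 48 h and at doses the labels do not give. Under TMM scaling 14 members were higher with FB23-2, 34 lower and 34 not called, or 58.5% called, against 81.5% of all tested genes (40.4% higher and 41.1% lower). The median was -0.11 against 0.00 for all tested genes. It was 0.057, 0.015 and 0.26 with upper-quartile factors, library totals and the length trend removed, against 0.17, 0.13 and 0.0036 for all tested genes. Under all 5 scalings 14 members were called higher and 10 lower, against 37.6% and 33.4% of all tested genes. RPS26 was lower with FB23-2 by 3.62-fold (log2 -1.85, SE 0.08, edgeR adjusted p = 2.23e-13) and RPL22L1 by 5.32-fold (log2 -2.41, SE 0.12, edgeR adjusted p = 3.43e-12). RPL28 was higher by 1.65-fold (log2 0.72, SE 0.09, edgeR adjusted p = 9.22e-07) and RPLP0 by 1.34-fold (log2 0.42, SE 0.05, edgeR adjusted p = 1.25e-06). RPLP2 and RPL11 were not called under TMM scaling, with 95% intervals of -0.20 to 0.18 and -0.11 to 0.08. After the length trend was removed both were higher with FB23-2, at 0.43 (edgeR adjusted p = 1.44e-07) and 0.39 (edgeR adjusted p = 2.46e-07), and RPL11 was also higher with upper-quartile factors (0.15, edgeR adjusted p = 0.00265) and library totals (0.11, edgeR adjusted p = 0.0137). Under TMM scaling all 7 tested paralogs were called, 6 lower and RPL10L higher. Of the 6, RPL39L and RPS27L lost their call with DESeq2 size factors, upper-quartile factors and library totals, and were at 0.19 and 0.10 after the length trend was removed. The comparisons share libraries, so they are not independent of each other.

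Standard members with and without a match at the listed start had overlapping responses. A member without a match can still hold a pyrimidine run close by. In RPL10A and RPL4, both counted as without, such a run begins a few bases after the listed start. The split therefore describes the listed starts, and whether these mRNAs carry the motif was not tested. With FB23-2 the 44 with a match had a median log2 fold change of -0.13, from -0.75 to 0.89, and the 16 without had -0.22, from -2.07 to 0.96. With FB23 the medians were -0.08 and -0.05. RPS26 and RPS29, which bound the range without a match, are both among those 16.

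Other genes that act with the ribosomal proteins were read from lists, whose counts stand against 41.3% higher and 41.3% lower among all tested genes with FB23-2. Of 11 tested chaperones and importers of ribosomal proteins, 10 fell and 1 rose with FB23-2 under TMM scaling. Their median was -1.19 against 0.01 for all tested genes. LTV1, PDCD2L, BCCIP and GRWD1 were at -2.67 (SE 0.06), -2.36 (SE 0.08), -2.33 (SE 0.06) and -2.15 (SE 0.06), and IPO9, at 0.21 (SE 0.04), did not keep its call under all scalings. With FB23, 4 of the 11 fell and 1 rose, against 11.2% and 12.3% of all tested genes.

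Of 26 other tested genes whose mRNAs carry a TOP motif, 8 rose and 13 fell with FB23-2, with a median of -0.11, and the share called was near the 82.6% of all tested genes. The filament gene VIM was at 1.69 (SE 0.06) and TPT1 at 0.96 (SE 0.04), while the nucleolar protein gene NPM1 was at -1.25 (SE 0.04) and EIF3K at -1.15 (SE 0.06). FAU, which encodes a small-subunit protein fused to a ubiquitin-like part and so falls outside the symbol rule, was at -0.81 (SE 0.07). Of 17 tested regulators of TOP mRNAs, 4 rose and 13 fell, with a median of -0.67. TSC1, an inhibitor of mTOR, was at 1.37 (SE 0.06), and CNBP, MLST8 and LARP1 were at -1.62 (SE 0.05), -1.47 (SE 0.07) and -1.21 (SE 0.04). Of 20 tested genes of ribosome quality control, 2 rose and 15 fell, with a median of -0.52, and the share called in either direction was again near 82.6%. The recycling factor ABCE1 was at -1.92 (SE 0.05). RACK1, a standard small-subunit protein without an RPS symbol, was not called (log2 -0.08, SE 0.06).

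Rows of pseudogenes of member genes also held reads, and whether those reads came from the members or from the copies was not tested. RPL13AP5 held 117107 expected counts over the DMSO libraries against 45952 for RPL13A, and RPSAP58 held 65457 against 51340 for RPSA. RPS14P3 held 12480 against 32591 for RPS14. With the pseudogene reads added to their member, the log2 fold change with FB23-2 became 0.11 in place of 0.23 for RPL13A, -0.25 in place of -0.22 for RPSA and -0.24 in place of -0.34 for RPS14. RPL13A kept its direction but at less than the size first read. The values of these members are therefore uncertain where reads could be split between copies.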

How the data were processed

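The deposited tables (1 per library) hold expected counts per gene, TPM and FPKM from RSEM, with the length and effective length in bases, per the file headers. RSEM 1.2.31 and GRCh38 stand in the submitters' processing notes. Poly(A) selection and a directional kit were used, per the labels' protocols. Not given in the sources used here are the aligner, annotation release and strand setting. TPM was used as deposited by the authors, and FPKM as deposited by the authors was not used.

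Expected counts were rounded and fitted in edgeR 4.0.16 (R 4.3.3; filterByExpr, minimum count 10, minimum total 15; TMM; 13365 genes; all 9 libraries; quasi-likelihood F test, two-sided; Benjamini-Hochberg over all tested genes). Intervals are 95% intervals. Totals ran from 12360291 to 38410750, and the common biological coefficient of variation was 5.12%. Other ways of processing were other scalings, filters, DESeq2 1.42.0, limma 3.58.1 (also on log2(TPM + 1)), a replicate block and leaving out each library; adding pseudogene reads and the paralog ratios were chosen after seeing the data.

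The members, lists and naming rule were chosen with earlier results of these data known. The rule took, per comparison, the 6 largest called rises and falls (mean log2 CPM of at least 1), the 5 highest and 5 lowest TPM, fixed members of known function, and the extremes of each list; RPS7, RPL7, RPL8, RPL19, RPS3, TSR2, FAU, RACK1, MDM2, IPO9 and LARP1 are named although their values were already seen. Each gene has 1 transcript model whose length is the same in all libraries, so a planned reading of mean transcript length gave nothing. Values of Y-linked members are not given. A gene of the list of RPL5 and RPL11 partners is not reported here, nor are that list's counts.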

Additional observations from a re-analysis of the deposited data

How the results depend on the processing

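The direction of the family with FB23-2 turned with the scaling. For FB23-2 against DMSO, upper-quartile factors gave 28 members higher, 23 lower and a median log2 fold change of 0.016. Library totals gave 26, 26 and -0.0083, limma-trend on log2(TPM + 1) gave 34, 20 and 0.057, and removal of a gene-length trend 50, 16 and 0.19. Of all tested genes, 48.3% were higher and 34.7% lower, then 47.1% and 35.6%, then 50.5% and 31.9%, then 41.2% and 41.8%. Their medians were 0.18, 0.16, 0.20 and -0.0027, so the member median was above theirs only with the length trend removed. For FB23-2 against FB23 the same settings gave 33 members higher, 18 lower and 0.057, then 27, 22 and 0.015. They gave 35, 13 and 0.10 with limma-trend, and 54, 12 and 0.26 with the length trend removed. Of all tested genes, 47.8% were higher and 34.1% lower, then 45.9% and 35.6%, then 49.5% and 30.9%, then 40.9% and 41.5%. Their medians were 0.17, 0.13, 0.19 and 0.0036, and again the member median was above theirs only with the length trend removed. With a minimum absolute log2 fold change of 0.5, the counts were 3 higher and 10 lower for FB23-2 against DMSO, 2 and 8 for FB23-2 against FB23, and 0 and 0 for FB23 against DMSO.

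For FB23 against DMSO, library totals gave 2 members higher and 1 lower, and no filter on low counts gave 3 and 1. Limma-trend on log2(TPM + 1) gave 2 and 1, DESeq2 1 and 7, and removal of the length trend 1 and 21. Of all tested genes, library totals called 14.1% higher and 8.77% lower, limma-trend 10.5% and 7.03%, and removal of the length trend 12.3% and 14.9%. Leaving out 1 library at a time gave 1 to 6 higher, 0 to 25 lower and a median of -0.13 to 0.00 for FB23 against DMSO. Of these fits, 0 were lower without DMSO replicate 1 or without DMSO replicate 2, 1 without FB23-2 replicate 2, and 5 (with 2 higher) without FB23-2 replicate 3. For FB23-2 against DMSO the ranges were 9 to 16 higher, 36 to 49 lower and -0.18 to -0.13, and for FB23-2 against FB23 they were 11 to 21, 28 to 49 and -0.19 to -0.03.

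With the replicate number as a block (replicate block), 1 member was higher and 0 lower for FB23 against DMSO, 10 and 40 for FB23-2 against DMSO, and 13 and 31 for FB23-2 against FB23. RPLP1 and RPS27L lost their call for FB23-2 against DMSO under the block. Libraries with the same number did not deviate together: the correlations of their deviations from the group means ran from -0.18 to 0.09, 0 of 9 above 0.1. By expected counts in place of TPM, the mean share of the members was 7.28% with DMSO, 7.11% with FB23 and 7.45% with FB23-2.

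Single members named in the text changed sign as follows, where the value was called in at least 1 of the 2 fits. For FB23-2 against DMSO and removal of the length trend, RPL11 was at 0.30, RPL3 at 0.21, RPLP2 at 0.29, RPS14 at 0.016, RPS19 at 0.31, RPS2 at 0.16, RPS6 at 0.021 and RPSA at 0.032. With limma-trend on log2(TPM + 1), RPL11 was at 0.13, RPL3 at 0.23, RPS19 at 0.20, RPS2 at 0.079 and RPSA at 0.020. With upper-quartile factors RPL3 was at 0.16 and RPS2 at 0.016, and with library totals RPL3 was at 0.14. For FB23-2 against FB23 and removal of the length trend, RPL11 was at 0.39, RPL23 at 0.064, RPL39L at 0.19, RPLP2 at 0.43, RPS14 at 0.15, RPS2 at 0.13, RPS27A at 0.0038, RPS27L at 0.10 and RPS6 at 0.066. With limma-trend on log2(TPM + 1), RPL11 was at 0.17, RPLP2 at 0.16, RPS2 at 0.012, RPS24 at 0.080 and RPS27L at 0.029. With upper-quartile factors RPL11 was at 0.15 and RPS24 at 0.0074, and with library totals RPL11 was at 0.11. The cause of these changes was not tested.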

Other observations

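RPL3L, a paralog of RPL3 known from striated muscle, had too few counts to be tested, with 5 expected counts over the 3 DMSO libraries, 5 over the 3 FB23 libraries and 30 over the 3 FB23-2 libraries. RPL39L, a paralog known from testis, was at 7.47% ± 0.974 (SD, n = 3) of the CPM of RPL39 with DMSO and at 9.35% ± 1.43 with FB23, with no overlap (exact permutation test, two-sided, p = 0.1, the smallest that 3 against 3 allow). RPS27L was at 6.72%, 7.27% and 7.10% of RPS27 with DMSO, 10.9%, 9.02% and 7.89% with FB23 and 6.04%, 4.92% and 5.79% with FB23-2, so that the ratio was above DMSO with FB23 and below it with FB23-2 in every library (exact permutation test, two-sided, p = 0.1 for each). RPS27 itself has the shortest model of the standard members, and the FB23 library with the highest ratio is replicate 1, which has the longest fragments. The part of fragment length in these ratios was not tested.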
